A study of Rattus norvegicus with 6 samples.

Results

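The membrane carriers that move amino acids and neurotransmitters were followed in the vestibular sensory epithelium of the rat inner ear after subchronic exposure to 3,3'-iminodipropionitrile (IDPN), a compound toxic to hair cells (HCs). They were taken as all rows whose symbol belongs to the solute carrier families SLC1, SLC3, SLC6, SLC7, SLC17, SLC18, SLC32, SLC36 and SLC38. Slc17a8 and Slc7a11 were left out by the rule. This gave 68 genes of the 32883 in the count table, chosen by family name, with earlier results of these data known.

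The libraries came from adult male Long-Evans rats. In the IDPN-4wk group, 3 rats drank water containing 20 mM IDPN during 4 weeks, and the 3 control rats drank water without it. For each rat, the sensory epithelia of 2 utricles and 6 cristae were pooled, so each bulk library is 1 animal and n = 3 per group throughout. The comparison asks which transcripts differ in the epithelium while HCs are under sustained toxic stress.

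Carriers of these families work at several places around a vestibular synapse. Vesicular carriers load transmitter into synaptic vesicles, plasma membrane carriers of the SLC1 and SLC6 families take transmitter back up, and glutamine carriers of the SLC38 family serve the return of glutamate between cells. In the vestibular epithelium glutamate is the transmitter of the HC, and the supporting cells around it carry the glutamate uptake carrier Slc1a3. Other members feed the cell with amino acids: the SLC7 light chains reach the membrane joined to a heavy chain of the SLC3 family, and the SLC36 carriers move small neutral amino acids, in part together with protons. Slc17a5 (sialin) and Slc38a9 act in the lysosome, where Slc38a9 takes part in the sensing of amino acids by the growth kinase complex mTORC1.

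Depth ranged from 13358678 to 18561991 counts per library. Of the 68 carriers, 43 passed the filter on low counts and were tested. Values below are CPM (counts scaled to the size of the library after TMM normalisation), which allow a gene to be compared between libraries but not with another gene, since transcript length is not taken into account. A gene was called when the adjusted p (Padj) of the quasi-likelihood test of edgeR was under 0.05 and the fold change was over 1.5. In bulk counts alone, fewer cells of a type and less RNA per cell cannot be told apart. For HCs, the study counted cells in other rats after the same exposure and reported only a limited loss.

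Cell type markers differed between the groups and are given here because the carriers are expressed in several of these cells. Of 12 HC markers, 9 were called lower and 0 higher, and their summed level was 6212 to 7347 CPM in control rats and 1980 to 2921 CPM in IDPN-4wk rats. Most of this sum was Spp1, with means of 4518 CPM in control rats and 1270 CPM in IDPN-4wk rats. Espn (68.6% of control), Pou4f3 (70.3%) and Gfi1 (94.9%) were not called. Of 10 supporting cell markers, 3 were called lower (Otog, Otogl and Gjb6), with sums of 9392 to 10433 and 4944 to 6184 CPM. Most of this sum was Otog, with means of 6262 CPM in control rats and 3199 CPM in IDPN-4wk rats. Among those not called were Sox2 (82.7% of control), Tecta (87.4%), Jag1 (97.1%) and Hes1 (128%). The sums of the 8 glial and Schwann cell markers overlapped (8582 to 10777 against 5958 to 8747 CPM, 1 called lower), whereas those of the 8 neuron markers did not (118 to 123 against 64.5 to 70.7 CPM, 3 called lower and 1 higher among 7 tested). Dark cell and melanocyte markers also summed lower (1061 to 1348 against 742 to 810 CPM, 2 of 8 called lower). The sums of the other lists overlapped, although single markers were called. Of 9 macrophage markers, C1qb was called higher (sums of 107 to 142 against 90.7 to 177 CPM), and of 8 stromal markers, Col1a1 was called higher and Lum lower (1013 to 1173 against 973 to 1071 CPM). Of 6 endothelium and pericyte markers, Flt1 was called lower (379 to 523 against 340 to 391 CPM), and of 3 red blood cell markers, all with a log2-Fold change above 0, Hbb was called higher (95.3 to 113 against 110 to 221 CPM). None of these markers was at 0 in all libraries. The part of these differences in the carrier values was not tested.

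Among the 43 tested carriers, 3 were downregulated (6.98%, against 6.62% of the 14352 genes tested) and 0 were upregulated (background 3.09%). The share of carriers called lower was therefore close to that of all genes. An unadjusted p under 0.05 was found in 14 carriers (background 33.1%), 3 of them higher (background 15.6%), and DESeq2 called 1 carrier, Slc1a1, higher and 3 lower. Scaled by library size alone, without TMM, 2 carriers were called lower and 1, Slc1a1, higher. The log2-Fold changes ranged from -1.90 to 0.64, with 23 below 0 and 20 above. Their median was -0.06, beside 0.02 for all genes, and the median of their absolute values was 0.34, beside 0.21. By Padj alone, 7 carriers were lower (16.3%, background 11.5%) and 2 were higher (4.65%, background 7.89%). The libraries of the groups did not overlap in 11 carriers that were lower (25.6%, background 19.3%) and in 3 that were higher (6.98%, background 18.5%).

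**Figure D1:**
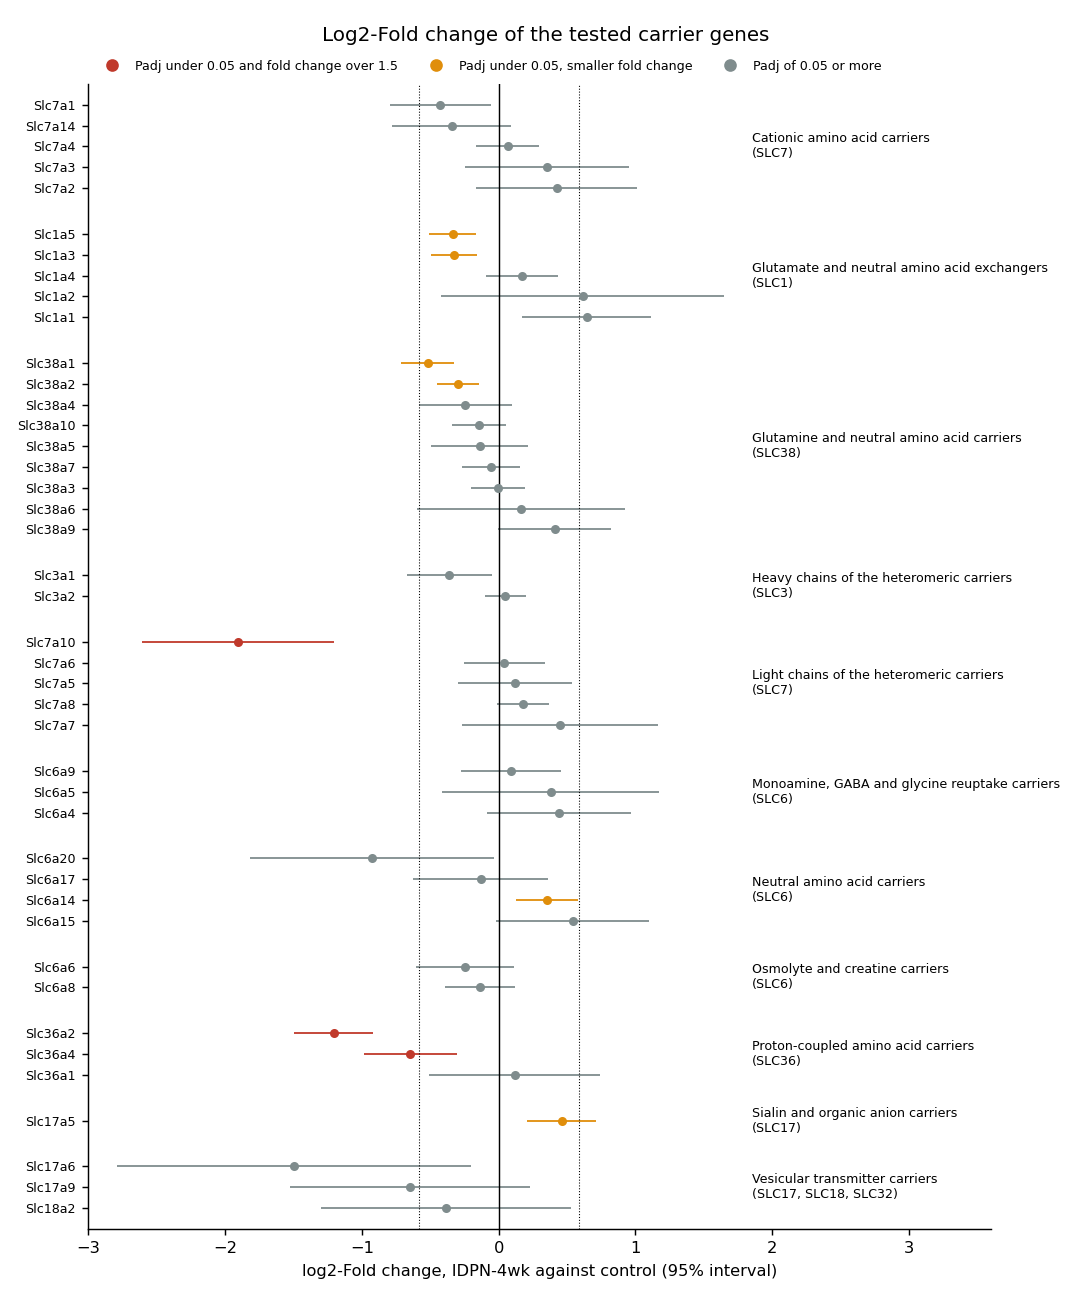
Log2-Fold change of 42 tested carriers on the x axis, grouped by role, with bars for the 95% interval. Vertical dotted lines mark a fold change of 1.5, and the 3 carriers past both thresholds (red) all lie on the left, from -1.90 for Slc7a10 to -0.65 for Slc36a4.

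The downregulated carriers were Slc7a10, Slc36a2 and Slc36a4. All of them move small or neutral amino acids across the membrane: Slc7a10 is a light chain that exchanges D-serine, glycine and other small neutral amino acids, Slc36a2 takes up glycine, alanine and proline with protons, and Slc36a4 has a high affinity for proline and tryptophan. Neutral amino acids are also moved by many carriers that were not called, among them the SLC38 members. Both SLC36 genes are among the 3 members of their family that were tested. The promoters of the 3 genes are shown because these are the carriers past both thresholds. They span 250 bases before to 50 after the RefSeq start in the assembly GRCr8, and capitals mark matches to the letters GGGCGG (GC box) on either strand. The Slc36a2 window lies at chr10:39806724-39807023 on the minus strand, that of Slc36a4 at chr8:20801070-20801369 on the plus strand and that of Slc7a10 at chr1:96965872-96966171 on the plus strand.
Slc36a2: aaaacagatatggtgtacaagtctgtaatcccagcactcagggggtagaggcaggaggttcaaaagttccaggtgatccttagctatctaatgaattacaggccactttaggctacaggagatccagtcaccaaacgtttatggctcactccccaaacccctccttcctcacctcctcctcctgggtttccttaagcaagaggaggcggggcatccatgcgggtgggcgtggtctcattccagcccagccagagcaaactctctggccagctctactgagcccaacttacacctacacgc
Slc36a4: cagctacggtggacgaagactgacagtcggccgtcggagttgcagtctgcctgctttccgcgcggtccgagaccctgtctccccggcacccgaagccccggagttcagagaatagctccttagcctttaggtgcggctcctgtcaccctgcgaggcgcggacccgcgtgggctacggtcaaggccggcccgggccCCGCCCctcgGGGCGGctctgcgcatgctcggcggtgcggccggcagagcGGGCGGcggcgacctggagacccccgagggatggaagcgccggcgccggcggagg
Slc7a10: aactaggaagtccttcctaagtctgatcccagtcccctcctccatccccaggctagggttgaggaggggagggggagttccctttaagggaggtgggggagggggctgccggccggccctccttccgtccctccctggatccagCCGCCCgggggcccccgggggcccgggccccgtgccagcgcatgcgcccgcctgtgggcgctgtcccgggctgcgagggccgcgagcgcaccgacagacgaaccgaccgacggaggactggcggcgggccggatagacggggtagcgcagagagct
The windows of Slc36a4 and Slc7a10 were rich in G and C (72.7% and 72.3%), and that of Slc36a2 was not (53.0%, with a median of 51.7% over all promoters and 57.8% over the 54 carriers with a window). GGGCGG occurred 3 times in Slc36a4, 1 time in Slc7a10 and not in Slc36a2, while 33.1% of the 33469 promoters of the table and 46.3% of the 54 carrier promoters held it. The letters TGATGNAA (core of the amino acid response element), searched like all motifs on both strands, were found in none of these 3 windows. The E-box CACGTG was not found in them either, and neither was the TATA box, TATAAA.

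Slc7a10 had the lowest log2-Fold change of the tested carriers. Its values were 4.97, 5.10 and 6.87 CPM in control rats and 0.935, 1.55 and 2.00 CPM in IDPN-4wk rats. Every exposed library was below every control, and the mean was 26.4% of the control mean (5.65 ± 1.06 to 1.49 ± 0.533, SD). The log2-Fold change was -1.90 (SE 0.32, 95% interval -2.60 to -1.20, edgeR Padj = 0.00219). Its partner Slc3a2, the heavy chain that carries most light chains to the membrane, was at 788, 848 and 812 CPM in control rats and at 822, 860 and 852 CPM in IDPN-4wk rats. The Slc3a2 libraries overlapped, and its difference lay between -0.10 and 0.20 on the log2 scale (95% interval, Padj = 0.652).

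Slc36a2 was at 48.7, 41.5 and 40.3 CPM in control rats and 20.8, 15.8 and 20.2 CPM in IDPN-4wk rats. The groups were far apart relative to their spread (43.5 ± 4.54 and 18.9 ± 2.73, SD), and the exposed mean was 43.5% of control. The log2-Fold change was -1.21 (SE 0.13, 95% interval -1.49 to -0.92, edgeR Padj = 0.00016). Slc36a4 was at 18.98, 19.9 and 16.99 CPM in control rats and 12.9, 9.59 and 13.3 CPM in exposed libraries. These did not overlap either, and the log2-Fold change was -0.65 (SE 0.15, 95% interval -0.99 to -0.30, edgeR Padj = 0.0152). The call of Slc36a4 rests on individual libraries, on the scaling and on the threshold. Without the library Control 2 it gave -0.60 with Padj = 0.0563, and without IDPN-4wk 2 it gave -0.51 with Padj = 0.0497, below the fold threshold. Scaled by library size alone it gave -0.54 with Padj = 0.0259, also below the fold threshold. It was not called when tested against a fold change of 1.5 (glmTreat). The third tested member, Slc36a1, a proton-coupled carrier of lysosomes and plasma membrane, ranged from 2.55 to 4.20 CPM in control rats and 3.25 to 4.60 CPM in IDPN-4wk rats (log2-Fold change 0.12, interval -0.51 to 0.74, Padj = 0.808). Summed over the SLC36 family, 65.6 ± 6.08 CPM in control stood against 34.7 ± 5.30 CPM in IDPN-4wk rats (SD), or 52.9%. Most of this sum was Slc36a2, and nearly all of the rest was Slc36a4.

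**Figure D2:**
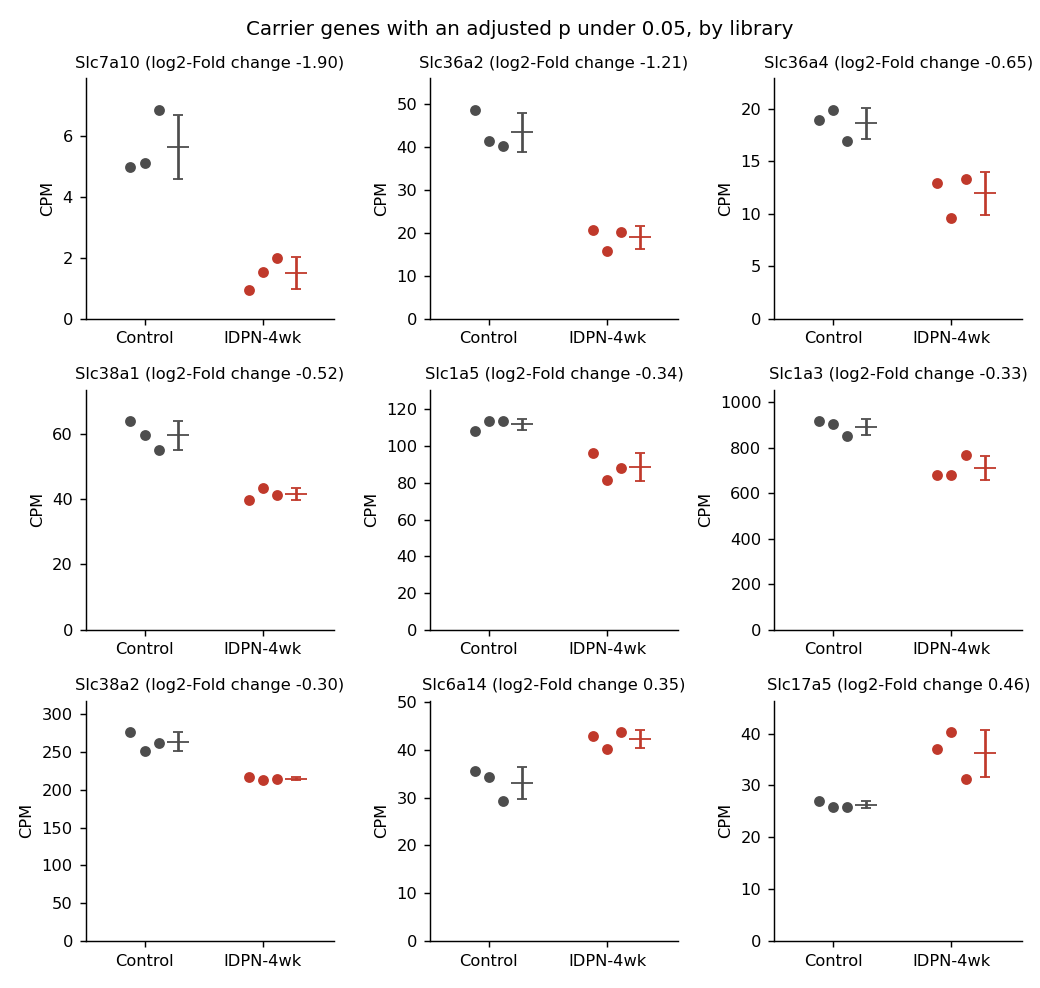
CPM in each library (points, y axis from 0) of the 9 carriers with Padj under 0.05, with the mean and SD of the 3 libraries beside them. The groups do not overlap in any panel, and 7 of the 9 are lower in IDPN-4wk.

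The SLC1 family holds the glutamate uptake carriers and the neutral amino acid exchangers, and none of its 5 tested members was called. Slc1a3, the glutamate carrier of supporting cells and glia, was at 918, 904 and 853 CPM in control rats and at 678, 680 and 770 CPM in IDPN-4wk rats. All exposed libraries were below all controls, with a mean of 79.6% (log2-Fold change -0.33, SE 0.08, edgeR Padj = 0.0127), which is under the fold threshold. Without the library IDPN-4wk 1, its Padj was 0.062. Slc1a5, an exchanger of glutamine and other neutral amino acids, went from 108, 114 and 114 CPM to 96.3, 81.6 and 88.0 CPM. Its exposed libraries also lay below the controls (79.2%, log2-Fold change -0.34, SE 0.08, Padj = 0.0135), and its Padj was 0.0513 without Control 3, 0.0515 without IDPN-4wk 2 and 0.0558 when scaled by library size alone.

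The glutamate and cysteine carrier Slc1a1 lay on the other side of 0. It was at 6.84, 5.66 and 5.95 CPM in control rats and at 7.05, 11.3 and 10.4 CPM in IDPN-4wk rats, which did not overlap although the lowest exposed library was close to the highest control. Its mean was 156% of control, past the fold threshold, with Padj = 0.0578 (log2-Fold change 0.64, SE 0.21), and it was called by DESeq2 (Padj = 0.0456) and without the library IDPN-4wk 1 (0.81, Padj = 0.0263). Slc1a2, the main glutamate carrier of brain astrocytes, was at most 1.09 CPM in any library (log2-Fold change 0.62, Padj = 0.397). Slc1a4, which exchanges serine and alanine, was at 26.4 to 32.4 CPM in control rats and 29.0 to 35.2 CPM in IDPN-4wk rats, and these overlapped (0.17, 95% interval -0.09 to 0.43, Padj = 0.351). The family sum, most of it counts of Slc1a3, was also lower: 1039 ± 35.0 CPM in control rats and 841 ± 53.1 CPM in IDPN-4wk rats (SD), 81.0% without overlap.

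None of the 9 tested glutamine and neutral amino acid carriers of the SLC38 family was called, and 2 were lower by Padj alone. Slc38a1, which takes up glutamine with sodium, was at 63.9, 59.6 and 55.1 CPM in control rats and 39.8, 43.4 and 41.3 CPM in IDPN-4wk rats. The log2-Fold change of -0.52 (SE 0.09, edgeR Padj = 0.00235, 69.8% of control) was under the fold threshold, and Padj remained under 0.05 in all 11 refits with another tool, scaling or filter or with a library left out. Slc38a2, a related carrier that cells use under amino acid shortage, was at 277, 252 and 262 CPM against 217, 213 and 214 CPM. The exposed libraries were nearly identical and lay below the controls (81.4%, log2-Fold change -0.30, SE 0.07, Padj = 0.0121), but Padj was 0.0698 when scaled by library size alone. Slc38a3, another glutamine carrier, was at 36.5 to 41.8 CPM in control rats and 38.4 to 40.4 CPM in IDPN-4wk rats, a difference of -0.00 with a 95% interval of -0.20 to 0.20 (Padj = 0.983). Slc38a9 was at 15.5, 11.3 and 11.0 CPM in control rats and 17.7, 13.2 and 19.5 CPM in exposed libraries, and these overlapped (0.41, Padj = 0.155). The other 5 tested members had Padj from 0.301 to 0.776. The family sum was 631 ± 14.4 CPM in control rats and 545 ± 11.4 CPM in IDPN-4wk rats (SD), or 86.5%.

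The carriers that feed the cell with large neutral and cationic amino acids did not pass the test with all libraries. Slc7a8, a light chain for large neutral amino acids, was at 728, 608 and 680 CPM in control rats and 760, 712 and 811 CPM in IDPN-4wk rats (log2-Fold change 0.18, 95% interval -0.01 to 0.37, Padj = 0.170). Slc7a5, a light chain with similar substrates, ranged from 43.7 to 62.2 CPM in control rats and from 38.5 to 67.9 CPM in exposed libraries (0.12, interval -0.30 to 0.54, Padj = 0.703). Its exposed libraries enclosed the controls on both sides. Slc7a1, the widely expressed carrier of arginine and lysine, was at 82.7, 116 and 68.7 CPM in control rats and 62.3, 59.6 and 77.2 CPM in IDPN-4wk rats, with the library Control 2 above the rest (-0.43, SE 0.17, Padj = 0.103). Its difference was -0.19 without Control 2 (Padj = 0.368) and -0.58 without Control 3 (Padj = 0.0358), Padj was 0.0492 without IDPN-4wk 3 and 0.0335 in DESeq2, and it was below the fold threshold in all of these. Slc3a1, the heavy chain that pairs with Slc7a9 in kidney, was at 15.2 to 18.3 CPM in control rats and 11.3 to 13.9 CPM in exposed libraries, and Padj was 0.0988 (-0.36, SE 0.14) although these did not overlap. The light chains summed to 747 ± 50.7 and 837 ± 56.1 CPM, and the heavy chains to 833 ± 31.8 and 858 ± 21.5 CPM, in control and IDPN-4wk libraries (SD), with overlap in both. Slc1a3, Slc3a2 and Slc7a8 together held 64.3% to 67.9% of all carrier CPM in each library, a share that also depends on transcript length, and all carriers summed to 3624 ± 83.0 CPM in control rats and 3421 ± 144 CPM in IDPN-4wk rats (SD), with overlap.

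**Figure D3:**
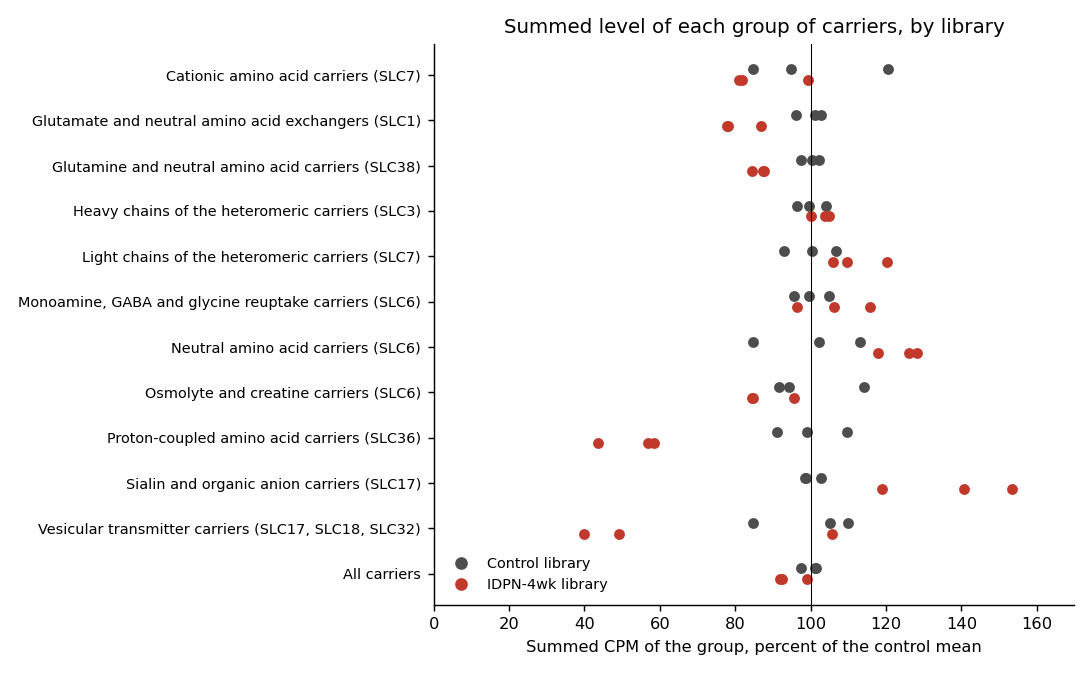
Summed CPM of each group of carriers in each library (points), as a percentage of the control mean on the x axis. The SLC36 carriers, mostly Slc36a2, lie at 52.9% of control in IDPN-4wk without overlap, and the neutral SLC6 carriers at 124% without overlap. The vesicular carriers are spread widely around 64.8%, and the sum over all carriers stays close to control (94.4%).

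The 2 carriers that were higher by Padj alone were both below the fold threshold. Slc17a5, which exports sialic acid and acidic amino acids from lysosomes, was at 27.0, 25.9 and 25.9 CPM in control rats and 37.0, 40.3 and 31.2 CPM in IDPN-4wk rats. Every exposed library was above every control (138% of the control mean, with a log2-Fold change of 0.46, SE 0.11 and edgeR Padj = 0.0170), and Padj ranged up to 0.0644 when 1 library was left out. Slc6a14, which takes up neutral and cationic amino acids with sodium and chloride, was at 35.6, 34.5 and 29.2 CPM in control rats and 42.9, 40.2 and 43.8 CPM in exposed libraries. These did not overlap (128%, log2-Fold change 0.35, SE 0.10, Padj = 0.0336), and Padj reached 0.125 without Control 3. Slc6a15, a carrier of branched-chain amino acids and proline, was at 9.36, 5.59 and 4.67 CPM against 10.1, 8.20 and 10.4 CPM, which overlapped through the library Control 1. Its Padj was 0.165 with all libraries (0.54) and 0.0239 without Control 1 (0.89). Slc6a20, which moves proline and related imino acids, had Padj = 0.136 with values of 1.13 to 2.07 CPM in control rats and 0.647 to 0.980 CPM in IDPN-4wk rats (-0.93, SE 0.40). The neutral SLC6 carriers, mostly Slc6a14, summed to 46.1 ± 6.58 CPM in control rats and 57.2 ± 2.56 CPM in IDPN-4wk rats (SD), or 124%, without overlap.

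The SLC6 carriers of transmitters, taurine and creatine did not pass the test. Slc6a6, the taurine carrier, was at 12.1 to 17.3 CPM in control rats and 11.5 to 13.6 CPM in IDPN-4wk rats (log2-Fold change -0.25, 95% interval -0.60 to 0.11, Padj = 0.323). Slc6a8, the creatine carrier, was at 24.3 to 29.5 CPM and 22.8 to 25.7 CPM (-0.14, interval -0.39 to 0.12, Padj = 0.458). Slc6a9, a glycine reuptake carrier, was at 8.01 to 9.64 CPM and 8.63 to 9.70 CPM (0.09, interval -0.28 to 0.46, Padj = 0.749). The libraries of each of these overlapped. The serotonin carrier Slc6a4 was at 8.07 to 11.0 CPM in control rats and 8.92 to 17.8 CPM in exposed libraries (0.44, SE 0.24, Padj = 0.226). The GABA carrier Slc6a13 had 5, 4 and 10 counts in the control libraries and 0 in each exposed library. It was removed by the filter on low counts and was called lower when that filter was left out (edgeR Padj = 0.0216). Against 3 counts allowed over the exposed group its level was at least 7.04-fold lower, a limit that covers counting error only.

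The vesicular carriers followed here, which do not include Slc17a8 of the SLC17 family, had few counts in all libraries. The values below are therefore not the whole of vesicular loading in this epithelium. Slc17a6, which loads glutamate into vesicles, had 23, 15 and 14 counts in control and 2, 5 and 13 counts in IDPN-4wk libraries, or 1.49, 1.05 and 0.991 CPM against 0.144, 0.258 and 0.837 CPM. The libraries IDPN-4wk 1 and 2 were well below the controls and IDPN-4wk 3 was just below them. The log2-Fold change of -1.50 (SE 0.59, 95% interval -2.79 to -0.20) had Padj = 0.0995, and without IDPN-4wk 3 it was -2.47 with Padj = 0.0192. The nucleotide carrier Slc17a9 was at 1.81, 2.24 and 1.91 CPM in control rats and 0.719, 1.19 and 1.87 CPM in exposed libraries (-0.65, SE 0.40, Padj = 0.287). The monoamine carrier Slc18a2 was at 1.61, 3.01 and 3.19 CPM and 1.44, 1.39 and 3.15 CPM (-0.38, SE 0.41, Padj = 0.562). In all 3 genes the library IDPN-4wk 3 was the highest of its group. Summed, the vesicular carriers were at 5.78 ± 0.772 CPM in control rats and 3.75 ± 2.07 CPM in IDPN-4wk rats (SD), or 64.8%, with overlap, and at 44.4% without IDPN-4wk 3. Slc17a7, another vesicular glutamate carrier, had 4 counts in IDPN-4wk 3 and 0 in the other libraries. Slc18a3 and Slc32a1, which load acetylcholine and the inhibitory transmitters GABA and glycine, were at 0 in every library, which allows up to 0.155 to 0.216 CPM depending on the library.

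In all, 25 carriers were removed by the filter and not tested, of which 8 were at 0 in every library and 17 had at least 1 count, with 24 counts at most in any library (Slc7a15). The 8 were Slc6a3, Slc6a18, Slc7a12, Slc17a2, Slc17a3, Slc17a4, Slc18a3 and Slc32a1, among them the dopamine reuptake carrier Slc6a3.

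The letters of the amino acid response element core, TGATGNAA, were in the windows of 3 of the 54 carriers (5.56%, against 3.98% of all promoters): Slc1a4, Slc38a1 and Slc7a1. The E-box CACGTG was in 8 (14.8%, against 6.42%), of which Slc1a4, Slc7a5, Slc7a14, Slc36a1 and Slc38a7 were tested, and TATAAA was in 6 (11.1%, against 14.2%). None of the carriers named for the first 2 motifs was called, and their log2-Fold changes ran in both directions, from -0.52 for Slc38a1 to 0.17 for Slc1a4. The lowest among those with the E-box was -0.34, for Slc7a14 (Padj = 0.260), whose libraries did not overlap.

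Genes whose products work beside the carriers were read from lists of the same fit. For comparison with the counts below, 6.62% of all genes tested were called lower and 3.09% higher. By Padj alone 11.5% were lower and 7.89% higher, and 33.1% had an unadjusted p under 0.05. Of 15 tested enzymes of transmitter synthesis and breakdown, 0 were called (4 had an unadjusted p under 0.05, and by Padj alone 1 was lower and 1 higher), and the log2-Fold changes had a median of -0.04. Of 17 tested targets of ATF4, the transcription factor of the amino acid response, 1 was called lower and 2 higher (median 0.12). Atf5, itself a stress transcription factor, was at 21.2, 32.2 and 31.7 CPM in control rats and 14.7, 12.9 and 10.6 CPM in IDPN-4wk rats (-1.16, edgeR Padj = 0.00147). Cebpb, a transcription factor of stress and inflammation, was at 4.71, 4.89 and 3.68 CPM and 10.5, 13.5 and 8.30 CPM (1.28, Padj = 0.00304), and both kept the call with any library left out. Ddit4, an inhibitor of mTORC1, was also higher (0.61, Padj = 0.00949), but was under the fold threshold without Control 3 (0.47) or IDPN-4wk 2 (0.53). By Padj alone, 5 genes of the list were higher and 1 was lower. The higher ones below the fold threshold were Atf4 itself (0.28, edgeR Padj = 0.0206), the serine synthesis enzyme Psat1 (0.30, Padj = 0.00814) and the leucine sensor Sesn2 (0.40, Padj = 0.0274). Other listed targets did not pass the test. Among them were Asns (0.01, Padj = 0.934), Ddit3 (0.05, Padj = 0.766), Chac1 (-0.17, Padj = 0.519) and Trib3 (-0.21, Padj = 0.344). Cth (0.91, Padj = 0.0966) and Nupr1 (0.59, Padj = 0.351) were past the fold threshold only.

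Of 19 tested genes of amino acid sensing by mTORC1, 1 was called higher and 0 lower (median -0.02), whereas by Padj alone 3 were lower and 1 higher. The 3 lower genes, below the fold threshold, were Mlst8 (-0.45, edgeR Padj = 0.00315) and Rptor (-0.38, Padj = 0.00526), subunits of the mTORC1 complex, and Sesn1 (-0.26, Padj = 0.0461), a stress-induced inhibitor of mTORC1. The gene called higher was the arginine sensor Castor1 (0.71, edgeR Padj = 0.0222), which was called in 2 of the 6 fits that left out a library, with Padj up to 0.0659. Of 15 tested amino acid carriers of other families, 1 was called in each direction (median -0.01). Slc43a3, known as a purine nucleobase carrier although its family is named for amino acids, was at 118, 100 and 103 CPM in control rats and 168, 186 and 155 CPM in IDPN-4wk rats, well apart (0.67, SE 0.09, Padj = 0.000611). Slc15a2, a peptide carrier, was at 28.5, 34.2 and 27.5 CPM and 23.5, 16.5 and 20.0 CPM (-0.59, SE 0.15, Padj = 0.0176). It gave -0.49 with Padj = 0.0734 without Control 2 and -0.47 with Padj = 0.0537 without IDPN-4wk 2. Scaled by library size alone, Slc15a2 was under the fold threshold (-0.49, Padj = 0.0321). Of 11 tested genes of taurine, creatine, glycine and serine metabolism, 1 was called higher and 0 lower (median -0.07), whereas by Padj alone 3 were lower and 1 higher. The lower genes were Cdo1 (-0.57, edgeR Padj = 0.00454), an enzyme on the way from cysteine to taurine, and the creatine kinases Ckb (-0.42, Padj = 0.00252) and Ckmt1 (-0.37, Padj = 0.0301), all below the fold threshold. The gene called higher was Shmt1, which interconverts serine and glycine (0.75, SE 0.22, Padj = 0.0371), and it kept the call in 1 of 6 fits that left out a library.

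**Figure D4:**
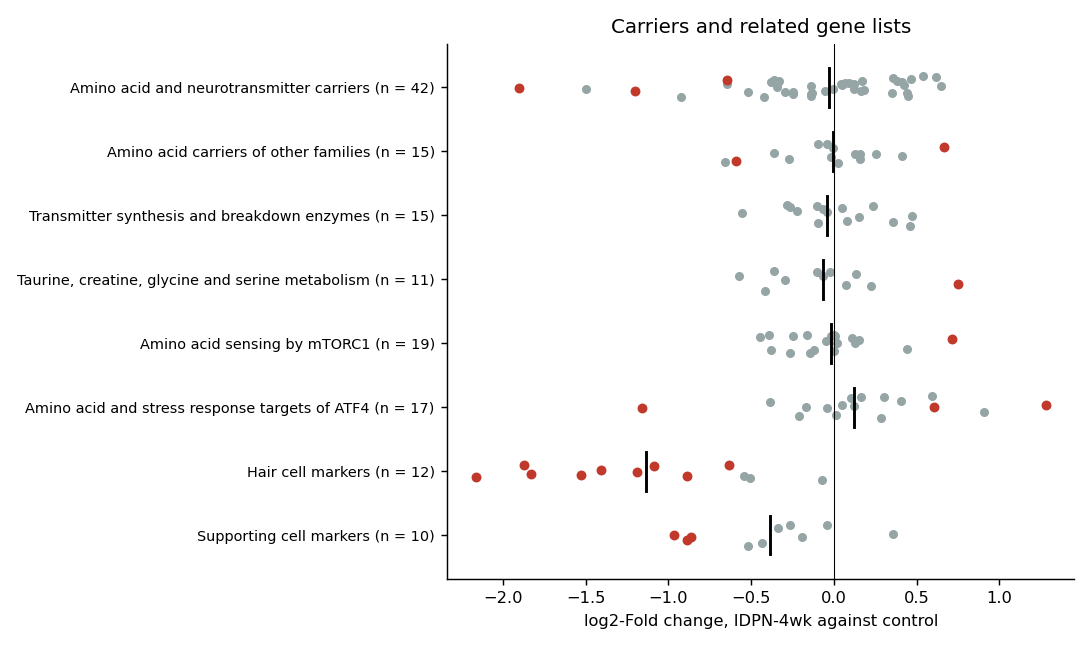
Log2-Fold change of each tested gene (points, x axis) in the carriers, the related lists and the HC and supporting cell markers, with red for genes past both thresholds and a vertical bar at the median. The median of the carriers (-0.06) lies near 0, whereas that of the HC markers is -1.14.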

How the data were processed

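The authors prepared SMART-seq2 libraries, which keep no strand, mapped the reads to Rnor6.0 with STAR 2.5.3a, and obtained estimated counts of genes from RSEM 1.3.0 (versions from the submitters' processing notes). The deposited values are expected counts, whole as deposited. RSEM shares reads among paralogs, so close copies are less certain. All 6 columns belonged to a library, and 0 columns were left out. The filter of filterByExpr, set to a minimum count of 10 and a minimum total of 15, kept 14352 of 32883 genes, which held 99.9% or more of each library's counts. After TMM scaling the groups were tested by quasi-likelihood in edgeR 4.0.16 (R 4.3.3), with Benjamini-Hochberg adjustment over all genes tested. The SE came from the quasi F statistic. DESeq2 1.42.0 was an alternative, as were other scalings, filters and thresholds and leaving out each library.

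Groups came from the treatment label. Replicates were numbered in accession order, which pairs nothing. The labels give a single batch. The animal codes of the 3 IDPN-4wk rats share a prefix that no control has, and 2 controls share another. What a prefix marks is not given in the sources used here, and it cannot be told apart from treatment. A count of 0 allows up to 3 counts, or 0.155 to 0.216 CPM. Reads had no molecular identifiers, so such limits cover counting error only.

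The carriers and lists were chosen with earlier results of these data known. The genes named were the carriers past both thresholds, a list of carriers with a role in transmitter handling or amino acid supply of the inner ear or named by the study, and up to 4 genes past both thresholds in each related list. Slc3a1, Slc6a4, Slc6a13, Slc6a14, Slc6a15, Slc6a20, Slc7a15, Slc17a5, Slc36a1, Slc38a9, Slc7a14, the carriers at 0 in every library, the single markers, and the genes of related lists not past both thresholds were chosen after their values were seen. Promoters came from RefSeq (GRCr8) by symbol, and 54 of the 68 carriers matched. No coordinates of Rnor6.0 were used. The values of 1 tested carrier are not reported here.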

Additional observations from a re-analysis of the deposited data

How the results depend on the processing

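The 25 carriers removed by the filter had at most 24 counts in a library. Scaling by library size alone moved the median log2-Fold change of all genes from 0.02 to 0.13 and the calls from 950 lower and 444 higher to 780 and 762. It gave a median of 0.0513 for the carriers and ended the call of Slc36a4 (-0.54, Padj = 0.0259 in edgeR, under the fold threshold). With it 1 carrier, Slc1a1, was called higher, and 1 gene was called among carriers of other families. The summed CPM became 87.3% of control for SLC1, 93.2% for SLC38, 111% for the heavy chains, 121% for the light chains, 134% for the neutral SLC6 carriers and 95.2% for the osmolyte and creatine carriers, and Slc38a3 turned to 0.10. DESeq2 called 1 carrier higher. Without the filter the carrier median was -0.13, and 4 carriers were called lower, the fourth being Slc6a13 (Padj = 0.0216). With Padj alone, 7 carriers were lower and 2 higher, and the calls were 2 among transmitter enzymes, 6 among ATF4 targets, 4 in mTORC1 sensing and 4 in taurine, creatine, glycine and serine metabolism. Tested against a fold change of 1.5 (glmTreat), the last 2 lists and the carriers of other families had 0 calls and the carriers called lower were 2, without Slc36a4.

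Leaving out each library gave 2 to 4 carriers called lower, with Slc36a4 lost without Control 2 or IDPN-4wk 2 and Slc17a6 added without IDPN-4wk 3, and 0 to 1 called higher, with 1 without Control 1 (Slc6a15) and 1 without IDPN-4wk 1 (Slc1a1), and a carrier median of -0.10 to 0.0079, above 0 without Control 2. The calls ranged from 0 to 1 among transmitter enzymes, 0 to 1 in mTORC1 sensing, 1 to 2 among carriers of other families and 0 to 2 in taurine, creatine, glycine and serine metabolism. The neutral SLC6 sum ranged from 115% (without Control 3) to 133% (without Control 1), and the osmolyte and creatine sum ranged from 84.6% to 94.96% (without Control 2). Slc38a3 ranged from -0.0579 to 0.0379, and Slc7a5 from -0.0643 (without IDPN-4wk 3) to 0.31. The causes were not tested. Of 385 values for 30 carriers under all alternatives, with related lists not counted, 365 kept their direction and their side of the call, 4 lost it (all Slc36a4), 11 gained it and 5 changed sign. Among the called genes of related lists, Atf5, Cebpb and Slc43a3 kept the call in 6 of 6 fits that left out a library, Ddit4 and Slc15a2 in 4, Castor1 in 2 and Shmt1 in 1. Slc36a2 and Slc7a10 kept the call in all 11 refits. No paired analysis was possible because the labels give no replicate numbers.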
